A study of Mus musculus with 4 samples.

Results

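The probe sets described here measured transcripts of mouse chromosome 10 that were left out of the authors' table of differing genes, so that they carry no gene name. Transcript levels came from 4 whole-transcript arrays, run on immortalised epithelial cells of mouse kidney kept in normoxia, 2 of Fh1Δ/Δ cells (fumarate hydratase knock out, KO) and 2 of Fh1fl/fl cells (WT), which still hold both floxed alleles. Both lines have a C57BL/6 background and received no treatment, in a medium with 10% serum and 2 mM glutamine. The paper states that pyruvate and uridine were also given to the mouse lines. The labels call the 2 arrays of a line biological replicates but do not say that they came from separate cultures, and whether a line is 1 clone is not given in the sources used here. Differences between lines therefore stand for 1 line of each genotype, and the spread between arrays may be technical.

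Members were selected on measured values, because a probe set had to be absent from the authors' table, which keeps only probe sets that passed their own KO against WT comparison. Probe sets with large and tight differences were thereby taken out in both directions, and every KO minus WT value of a member below is a description that carries no test. A member also had to lie, by its probe set ID, between 2 successive table entries that both map to chromosome 10. Of 16755 probe sets on the arrays, 15139 were outside the table, 14355 of these could be placed on a chromosome in this way, and 633 fell on chromosome 10. The table itself holds 74 named genes of chromosome 10, which served as landmarks.

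Fumarate hydratase converts fumarate to malate in the tricarboxylic acid cycle, and its loss in kidney cells lets fumarate build up. Each gene on a chromosome is mostly read from its own promoter, so neighbours can move apart but need not. An array shows a chromosome as a row of separate transcript levels. Mouse chromosome 10 is divided into cytogenetic bands lettered A to D. It carries, among others, Mdm2, which encodes the ubiquitin ligase that degrades p53, and Cdk4 and Cdk2, which encode kinases of the cell cycle. A probe set combines the probes of 1 transcript cluster into 1 level, which is on a log2 scale. Members were called brighter where the mean over the 4 arrays was above the median of all probe sets, 7.24, and dimmer otherwise, since at low levels background makes up more of the signal. This gave 295 brighter and 338 dimmer members, and levels ran from 2.26 to 13.21.

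The label was checked against the data first. Fh1, the targeted gene, had log2 levels of 9.21 and 9.14 in KO cells and of 10.48 and 10.45 in WT cells. None of 7 fibroblast, 4 endothelial or 4 immune markers has a name in the table, and the unlisted probe sets carry no names, so that cell identity could not be read from markers. When each table entry between 2 neighbours on chromosome 10 was set aside in turn, 70 of 71 did lie on chromosome 10. The exception was Llph, a nucleolar protein gene that the table puts on chromosome 1 and the reference on chromosome 10, and beside it 15 unlisted probe sets were left without a place. In a bulk sample, fewer cells of a kind and less RNA per cell cannot be told apart.

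Probe set IDs followed the chromosome. The first 40 table genes of chromosome 10, from Fbxo5, an inhibitor of the anaphase-promoting complex, in band A1 to Dnajc14, a chaperone cofactor, in band D3, stood in the order of their start sites in the mouse reference GRCm38.p6 in 39 of 39 successive steps. The IDs then turned back to band A, and from Rab32, a small GTPase, to Cdk2 the order again rose in 32 of 32 steps between genes that matched the reference. The chromosome was thus crossed in 2 runs, with 315 members in the first, 284 in the second and 34 between the end of the first and the start of the second, which cannot be assigned to either end. Because both runs cross the same bands, they give separate sets of transcripts over the same stretches.

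Brighter members lay lower in KO cells than in WT cells. Their median log2 level was 9.06 and 9.01 on the WT arrays and 8.86 and 8.77 on the KO arrays, so that both KO values were below both WT values. The brighter probe sets of the other chromosomes that were outside the table, 6527 in number, had medians of 9.024 and 8.999 in WT and 9.08 and 9.01 in KO cells, where the groups overlapped. Member by member, the median log2 difference of KO minus WT was -0.28, and it ranged from -0.31 to -0.22 over the 4 pairs of 1 KO and 1 WT array. Within a genotype, the second array lay below the first by a median log2 difference of -0.03 in WT and -0.09 in KO cells for the same members.

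**Figure D1:**
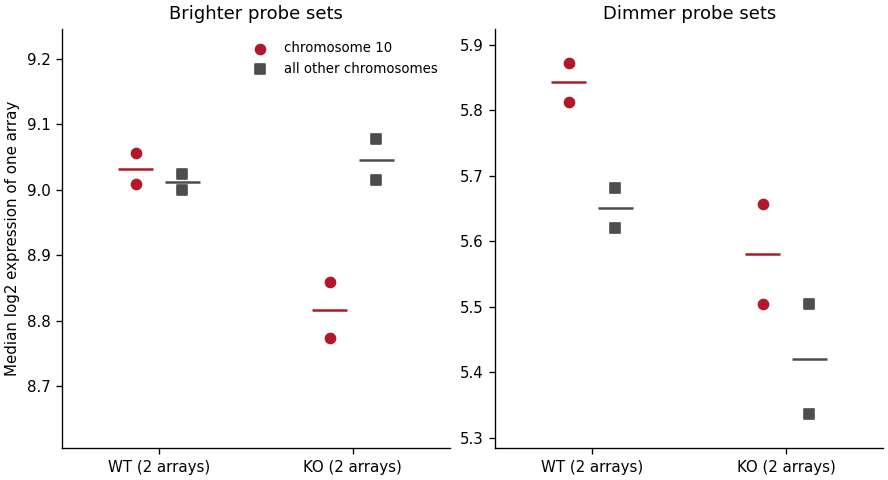
Median log2 expression of each array (points) and the mean of the 2 arrays of a group (lines), for chromosome 10 members and for probe sets of all other chromosomes outside the table; the vertical axis does not start at 0. Brighter members go from 9.06 and 9.01 on the WT arrays to 8.86 and 8.77 on the KO arrays, while dimmer probe sets are lower in KO cells both on chromosome 10 and elsewhere.

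The difference was spread over most brighter members and did not come from a few. Of the 295, 246 had a lower mean in KO cells (83.4%) and 49 a higher one, against 47.8% lower among the unlisted brighter probe sets of the other chromosomes. The lower quartile, median and upper quartile of the difference were -0.43, -0.28 and -0.10 on chromosome 10, and -0.17, 0.02 and 0.22 on the others, which is a shift of the whole distribution on the log2 scale. Both KO arrays lay below both WT arrays in 201 brighter members (68.1%) and above them in 30 (10.2%). Over all 8377 brighter probe sets of the arrays these shares were 32.6% and 37.4%, and over the unlisted ones of the other chromosomes they were 30.1% and 34.4%. Membership rests on the same comparison, so nothing is read from these shares beyond their size.

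**Figure D2:**
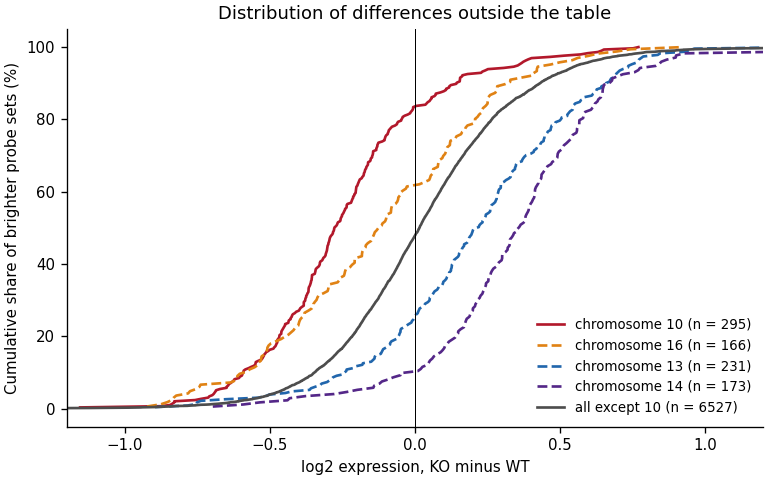
Cumulative share in percent of brighter probe sets outside the table (vertical axis) against the log2 difference of KO minus WT (horizontal axis, drawn from -1.2 to 1.2), for chromosome 10, for chromosomes 13, 14 and 16 and for all chromosomes except 10. The curve of chromosome 10 crosses 0 at 83.4% and that of all others at 47.8%, and the curves keep their distance along most of the range.

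Brightness separated chromosome 10 from the other chromosomes. Above the median level, in each of the upper 5 of 10 equal classes of brightness, members had median differences between -0.32 and -0.24, while the other chromosomes had medians between -0.02 and 0.05. The gap between them was -0.32 in the dimmest of these classes and -0.28 in the brightest. Below the median level the gap was smaller, between -0.11 in the class next to the median, where 77.5% of members and 61.5% of the others were lower, and -0.03. The 338 dimmer members had a median log2 difference of -0.27, but dimmer unlisted probe sets elsewhere also lay lower in KO cells, with a median of -0.22. With quantile normalization these medians were -0.12 and -0.05. Over the array pairs the dimmer members ranged from -0.37 to -0.16, and their gap to the other chromosomes was -0.06. A lower value of a dimmer member was thus shared with dim probe sets of all chromosomes. The median of the brighter members lay below the pooled median of equally bright probe sets elsewhere. That pooled median joins chromosomes that moved in both directions, such as 14 with a brighter median of 0.36 and 5 with -0.18.

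**Figure D3:**
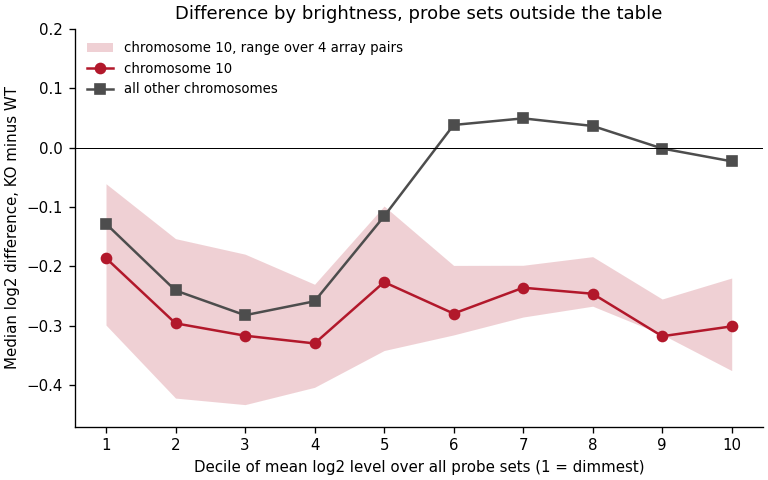
Median log2 difference of KO minus WT (vertical axis) in 10 classes of mean log2 level with equal numbers of probe sets, from dimmest to brightest (horizontal axis), for chromosome 10 members with the range over 4 array pairs shaded, and for probe sets of other chromosomes outside the table. The lines run close together in the dimmest classes and are 0.28 to 0.32 apart in the upper 5. The other chromosomes are pooled.

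Set beside the other chromosomes, all treated by the same rule, brighter members of chromosome 10 had the lowest median of the 20 chromosomes compared, and they had the lowest in each of the 4 array pairs. Chromosome 5 came next with a median of -0.18 (from -0.19 to -0.16 over the pairs). It was followed by chromosome 4 with -0.14 (from -0.15 to -0.12) and chromosome 16 with -0.12 (from -0.16 to -0.08). Of their brighter probe sets 74.5%, 72.3% and 61.4% were lower in KO cells, in the order given, beside 83.4% on chromosome 10. At the other end, chromosome 14 had a median of 0.36, with 9.83% of brighter probe sets lower in KO cells, a larger shift in size than that of chromosome 10. Next came chromosomes 18, 15 and 13 with medians of 0.25, 0.24 and 0.22, and with 20.3%, 17.5% and 25.1% lower. The array pairs of chromosome 10 did not overlap those of any other chromosome, although pairs share arrays and their range is no confidence interval. Dimmer members also ranked lowest, but their pair range overlapped that of all the others. No test of these differences was made, since with 2 arrays against 2 an exact permutation test over arrays cannot give a p below 0.333.

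**Figure D4:**
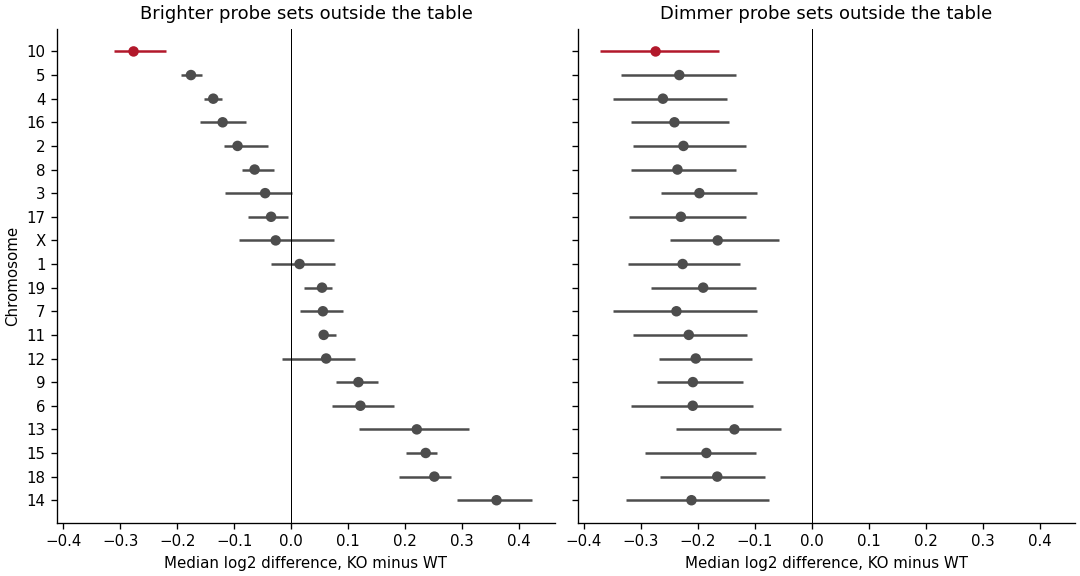
Median log2 difference of KO minus WT (points) and its range over the 4 KO-WT array pairs (lines) for probe sets outside the table on each chromosome, brighter ones on the left and dimmer ones on the right, in the order of the brighter medians. Chromosome 10 (red) stands at -0.28 for brighter probe sets, with no overlap of its range with that of chromosome 5, and at -0.27 for dimmer ones, where its range overlaps all others.

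By the medians of bins, the lower level was found along both runs. In 16 successive bins of 40 members in ID order (33 in the last), the median of the brighter members was below 0 in every bin. The smallest share of lower brighter members, 9 of 15, was in the bin from the neighbourhood of Map2k2 to that of Mdm1. The lowest bin lay around the turn between the runs, between Dnajc14 and Eya4, with a median of -0.36 and 9 of 13 brighter members lower. The highest was the next, from the neighbourhood of Vta1, which acts in endosomal sorting, to that of Man1a, a mannosidase of the Golgi, with -0.15 and 9 of 14 lower. Over the array pairs the highest bin ranged from -0.27 to 0.0046 and the lowest from -0.38 to -0.28. The medians of bins differed between replicate arrays of 1 genotype by up to 0.18, which is close to the distance between the highest and the lowest bin, so no order of the bins is read from them.

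**Figure D5:**
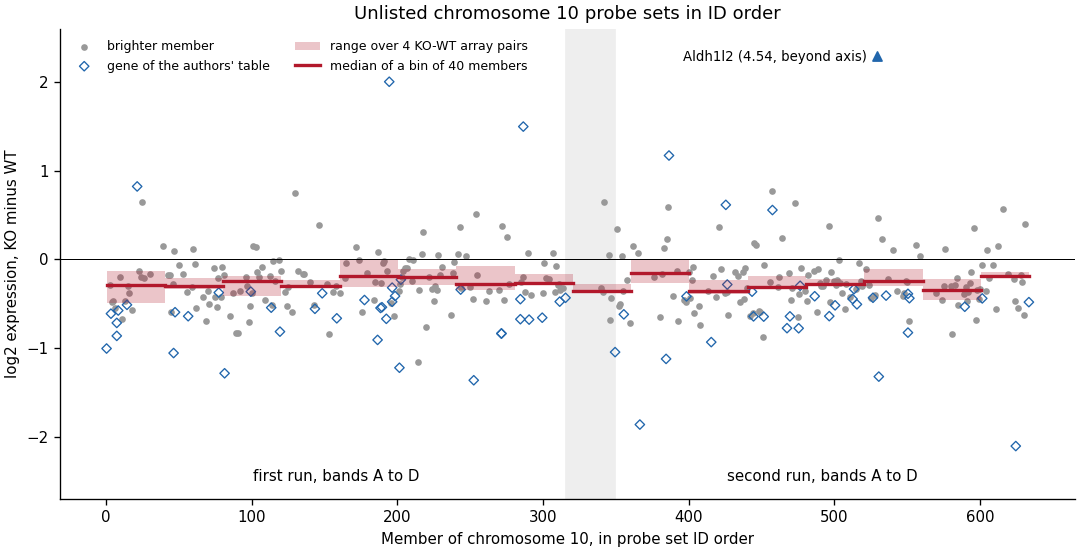
Log2 difference of KO minus WT (vertical axis) of the 295 brighter members in ID order (grey points), the median of brighter members in each bin of 40 members (red lines) with its range over 4 array pairs (shaded), and the 74 chromosome 10 genes of the authors' table (diamonds), of which Aldh1l2 at 4.54 lies beyond the axis. The grey column marks the 34 members at the turn between runs, and all 16 bin medians lie between -0.36 and -0.15.

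Both runs gave nearly the same value. The brighter members had a median log2 difference of -0.26 in the first run (126 of 148 lower) and of -0.29 in the second (116 of 141 lower). By the lettered band of the preceding table gene, the medians in the first run were -0.25 in band A, -0.31 in B, -0.22 in C and -0.26 in D, and those in the second were -0.21, -0.34, -0.29 and -0.21. Band B thus had the lowest median in both runs, with 43 of 47 and 28 of 32 brighter members lower, and the ranges over array pairs were -0.39 to -0.19 and -0.38 to -0.26. In the second run that range lay below the one of band D (-0.22 to -0.14), which held 15 brighter members. The ranges of all other bands overlapped that of band B of their run. Band C of the second run counts the 11 brighter members between Mdm2 and Usp15 (median -0.34), since Mdm2 is mapped to C1-C3. In the first run Mdm1, mapped to the same bands, stood after E2f7 and Csrp2 of band D1. Those 11 may thus belong to band D, and no difference between bands B and D is read from the ranges. The longest row of successive brighter members with a lower KO mean held 23 members, in band B of the first run. It began past Hdac2, which encodes a histone deacetylase, and ended before Ppa1, which encodes a pyrophosphatase.

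The intervals between table genes give a closer view. Members fell into 68 intervals, of which 66 held a brighter member, and the median of the brighter members was below 0 in 60 of these. All 25 intervals with 5 or more brighter members had a median below 0. The 6 intervals with a median above 0 held 1 or 2 brighter members each.

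The 10 intervals with most members, with a tie for the last place, are 11 intervals that hold 280 of the members. The largest lies between Map2k2, which encodes the MAP kinase kinase MEK2, and Pctk2 (now Cdk17), of a family of cyclin-dependent kinases. Of its 41 members 25 were brighter, with a median log2 difference of -0.15 and 19 lower, and Map2k2 and Pctk2 themselves had -0.23 and -0.34. Between Vezt, whose protein sits at adherens junctions, and Mdm2, 12 of 38 members were brighter, with a median of -0.30 and 9 lower, beside -0.44 and -0.53 for the flanking genes. In both intervals the median of the brighter members had the same sign as the flanks and a smaller size. Large and tight differences put a probe set in the table and not among the members, so that smaller size is not read as a result.

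Elsewhere flanks and members differed in direction or in size. Between Map3k5, which encodes the stress kinase ASK1, and Epb4.1l2 (now Epb41l2), a protein of the membrane skeleton, the flanks had log2 differences of 0.82 and -1.06, while the 10 brighter of 25 members had a median of -0.17 and 8 were lower. Between Usp15, a deubiquitinase, and Il23a, a subunit of interleukin-23, the flanks had -0.44 and -2.11, and the 10 brighter of 23 members a median of -0.19 with 7 lower. Between Ube2n, a ubiquitin-conjugating enzyme, and E2f7, a transcriptional repressor of the cell cycle, the flanks had -1.36 and -0.84, and the 5 brighter of 19 members a median of -0.34 with 4 lower. Brighter members in these intervals had medians from -0.34 to -0.17, beside genes that moved much further and also beside a gene with a higher level in KO cells. The rule had removed large and tight differences from the members, so nothing is read from their smaller size.

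Of the other large intervals, that from Sim1, a transcription factor gene, to Sh3rf3, a ubiquitin ligase gene, had the lowest median log2 difference, -0.53, and all 9 of its brighter members were lower, from -0.83 to -0.20. That from Hdac2 to Prep, which encodes a prolyl endopeptidase, had -0.39 with 11 of 12 lower. That from Dna2, a helicase and nuclease gene of DNA replication, to Ggt1, which encodes a γ-glutamyltransferase, had -0.26 with 10 of 11 lower. That from Ube2g2, a ubiquitin-conjugating enzyme gene of endoplasmic reticulum quality control, to Palm had the mildest median, -0.13, with 5 of 6 lower. The interval of the turn, from Dnajc14 to Rab32, held 34 members of which only 6 were brighter, with a median of -0.34 and 4 lower. Between Eya4, a transcriptional coactivator, and Hey2, a target of Notch signalling, 4 of 18 members were brighter, with a median of -0.18 and 3 lower.

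The reference shows what some of these stretches hold, without naming any member. Between the start sites of Map3k5 and Epb41l2 lie 15 genes of the trace amine-associated receptor (Taar) family, most of which are receptors of olfactory neurons, among 46 protein-coding genes. The stretch from Eya4 to Hey2, crossed in the second run, covers the same 15, which are all the Taar genes of the chromosome. Between Ube2g2 and Palm lie 10 olfactory receptor genes among 75, and between Rrp1 and Rnf126 in the second run 10 among 36. In these intervals 15 of 25, 14 of 18, 13 of 19 and 5 of 10 members were dimmer, in the order given, against 338 of all 633 (53.4%). Which of these genes the dimmer members read is not known from the files.

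Single members are given by ID, since the files pair none with a name, and only the 2 lowest and the 2 highest brighter members whose groups did not overlap. Probe set 6769310, between Map2k2 and Pctk2, had log2 levels of 8.69 and 8.39 on the WT arrays and of 7.65 and 7.13 on the KO arrays, a difference of -1.15. Probe set 6774907, between Ado, a thiol dioxygenase gene, and Tfam, which encodes the transcription factor of mitochondrial DNA, had 11.004 and 10.957 in WT and 10.30 and 9.91 in KO cells, a difference of -0.88. With these included, 19 of 25 brighter members were lower in the interval of the first and 3 of 5 in that of the second.

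Probe set 6775148 was the highest, with log2 levels of 7.72 and 7.51 on the WT arrays and of 8.51 and 8.27 on the KO arrays, a difference of 0.77. Its ID is the number just before that of Gstt3, a glutathione transferase gene, which had a log2 difference of 0.56. Probe set 6768529, between Dna2 and Ggt1, had 7.195 and 7.199 in WT and 7.80 and 8.10 in KO cells, a difference of 0.75, in an interval whose other 10 brighter members were all lower. Among the dimmer members differences reached -1.17 and 1.52. The member with 1.52 lay between Gm1553 and Aldh1l2, a mitochondrial folate enzyme gene whose own log2 difference was 4.54.

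The 74 named genes of chromosome 10 are not members, and they stand in the table because they passed the authors' comparison of the same arrays, which also sets the size of their differences. KO cells had the lower mean for 67 (90.5%) and the higher for 7, with a median log2 difference of -0.54. Of the 1299 table entries on other chromosomes 39.4% were lower, and their median was 0.42. The lowest were Il23a (-2.11), Eya4 (-1.86), Ube2n (-1.36), Nuak1, a kinase related to AMPK (-1.32), and Sim1 (-1.29). The 7 with a higher level were Aldh1l2 (4.54), Reep6, which shapes the endoplasmic reticulum (2.00), Ddit3, the stress-induced transcription factor CHOP (1.499), Nkain2 (1.17), Map3k5 (0.82), Unc5b, a netrin receptor gene (0.62), and Gstt3 (0.56). They lay in both runs. In the intervals beside them, 31 of 40 brighter members had a lower mean in KO cells. Around Ddit3, the 2 brighter members on the side of Cdk4 were lower and those on the side of Tmem194 (now Nemp1) had -0.37 and 0.07, and the 2 between Hey2 and Nkain2 were both higher, at 0.23 and 0.60.

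Members and table genes were not parted by size alone. The smallest difference of a table gene of chromosome 10 was that of Map2k2, -0.23, and 405 of the 633 members, 188 of them brighter, had a larger absolute difference than this. The lowest brighter member, at -1.15, stayed outside the table while Map2k2 was in it.

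For a count of single probe sets past a threshold, the 4 arrays were fitted with limma over all 16755 probe sets with genotype as the only term. At a Benjamini-Hochberg adjusted p under 0.05 from limma, 34 members (5.37%) were called lower and 12 (1.90%) higher in KO cells. Over all probe sets, which include those of the table, these shares were 4.0% and 6.25%. Of the unlisted probe sets on other chromosomes, placed by the same rule, 251 (1.829%) were called lower and 357 (2.602%) higher. Among the calls of members, 20 of the lower and 6 of the higher were brighter members, a split that was not counted over all probe sets. The rule had removed what the authors' own comparison called, so these shares are given for the account of the members and nothing is read from them. Of the calls among members 73.9% were lower, against 39.0% of the calls over all probe sets. After each array was centred on its median these shares were 90.8% (59 lower and 6 higher) and 56.7% (1058 lower), so the balance moved over all probe sets as well. The counts of lower and higher members went to 4 and 3 without WT replicate 1, when 318 and 474 of all probe sets were called. They went to 1 and 1 without WT replicate 2 (112 and 288 of all), to 0 and 1 without KO replicate 1 (81 and 205) and to 4 and 3 without KO replicate 2 (153 and 393). What the lower level of the members came from was not tested.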

How the data were processed

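Log2 expression values of 4 arrays (2 KO, 2 WT), as deposited, had been normalized between arrays by the authors. RMA, Partek and the mouse build mm9 are listed in the processing notes of the submitters; versions are not given in the sources used here. The authors' table, used only for IDs, names and map positions, also holds their p-values and fold changes for KO against WT, which were not used; its log2 columns of these arrays equal the deposited matrix. In the tables, 12 columns of other arrays were not used. Of the 74 table genes of chromosome 10, 73 matched a RefSeq gene of GRCm38.p6, 4 under another symbol; its positions served only for gene order.

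A member's difference is the mean of the KO arrays minus that of the WT arrays. Brightness, bins and intervals are defined in the text. limma 3.58.1 in R 4.3.3 (lmFit, eBayes; 2 residual and 3.45 prior degrees of freedom, genotype as the only term) was tested on simulated data and adjusted over 16755 probe sets. The number of arrays limits the precision. Alternatives were median centring, quantile normalization, other brightness limits, 2 neighbours on each side, return of the table's probe sets, other summaries, filters on dim probe sets, other moderation, each array left out and a replicate block. Named were the 2 lowest and 2 highest brighter members whose groups do not overlap, the 10 intervals with most members (ties kept), the 5 lowest and 5 highest table genes and the flanks of the lowest and highest bins. Other genes named as landmarks, Unc5b and Gstt3 among them, the longest row of lower members and the gene families of the reference were chosen after their values were seen. Members and lists were chosen with earlier results of these data known. Epithelial markers are not reported here.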

Additional observations from a re-analysis of the deposited data

How the results depend on the processing

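The median of the brighter members stayed below 0 under all 16 alternatives tried, and in 13 of them it moved by less than the SD over array pairs (0.05). It was -0.37 with median centring and -0.33 with quantile normalization, and it ranged from -0.29 to -0.23 with an array left out. The share of lower brighter members was 87.5% with median centring and ranged from 78.6% to 85.4% with an array left out. The dimmer median was -0.37 with median centring and -0.12 with quantile normalization, so its size depends on the scaling. The gap to the brighter probe sets of the other chromosomes, -0.29, was -0.35 with the table's probe sets added back. It ranged from -0.28 to -0.26 with an array left out and was -0.30 with quantile normalization. Median centring shifts every difference by the same amount, so it left the gap at -0.29 by construction.

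Calls by limma depended on the setting. Lower and higher members numbered 59 and 6 with median centring (1058 lower over all probe sets, 56.7% of all calls). They numbered 112 and 17 with trend and robust moderation (1472 and 1856 of all probe sets), 107 and 16 without the dimmest 25% (1534 and 1756) and 106 and 13 without the dimmest 50% of probe sets (1246 and 1697). An unmoderated test called 0 in each direction, among members and over all probe sets. At an unadjusted p under 0.05 from this test, 94 members were lower and 16 higher. Over all 16755 probe sets, 3671 passed that limit in both directions together. Their split by direction was not counted, so nothing is read from the split of the members. With an array left out, 0 to 4 members were lower and 1 to 3 higher. The labels give no shared origin to arrays of the same number; deviations of replicate 1 from replicate 2 correlated between genotypes at 0.11 across probe sets. In this balanced design the replicate number as a block leaves each difference, and so the brighter median of -0.28, as it was by construction, and the blocked fit called 37 members lower and 11 higher (756 and 1011 of all probe sets). Leaving Llph out of the placing rule (648 members) or leaving out the interval at the turn, both chosen after seeing the data, gave brighter medians of -0.28 and -0.27. With 2 arrays a group and background in dim signals, small differences of single members were not resolved.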
